A study of Arabidopsis thaliana with 12 samples.

Results

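Wild-type (WT) Arabidopsis thaliana seedlings of the Col-0 ecotype were compared at 7 d and 1 d of growth in constant red light, which asks how the transcriptome of normal seedlings changed over the first week. Loci were included where the deposited table listed 1 FPKM or more at either age, FPKM being mapped fragments scaled to the length of the transcript and to the size of the library. This gave 20453 of the 33349 loci in the tables, made up of 20350 of 33078 nuclear loci, 79 of 130 plastid loci and 24 of 141 mitochondrial loci. The change of a locus was log2((7 d + 1)/(1 d + 1)), a scale that understates the change of low loci.

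The study set WT beside sig2-2, a T-DNA insertion line in the nuclear gene SIG2, which encodes a sigma factor that directs the plastid RNA polymerase to promoters. Its 12 samples were 3 biological replicates in each of 4 conditions, WT and sig2-2 at 1 d and at 7 d, and the comparison below rests on the 6 WT samples. Seeds of both lines were sown on Murashige and Skoog medium with sucrose, stratified in the cold and dark, and moved to red light, so every group shared the sugar supply and the absence of a day and night cycle. RNA of whole seedlings was made into poly(A)-selected libraries, and a whole-seedling value cannot tell apart more cells of a type from more RNA per cell. The tables hold 1 combined FPKM value per condition, so no difference here has a replicate check, and no error or p-value can be given. A locus is said to have risen or fallen where it reached 2-fold on the scale above, which is a fixed size and not a test.

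A germinating Arabidopsis embryo first lives on what the seed stored: oil is broken down in peroxisomes and turned into sugar by way of the glyoxylate cycle, while proteins that protected the dry embryo are lost. Phytochromes, the red-light receptors, act through PIF and HY5 transcription factors to start chloroplast development, in which nuclear genes supply most photosystem, antenna and Calvin cycle proteins and the plastid genome supplies the reaction centre cores. Cotyledons expand, the root differentiates an endodermis, and the shoot meristem begins to make leaves.

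Of the 20350 nuclear loci, 3966 (19.5%) were higher at 7 d by 2-fold or more, 2787 (13.7%) were lower, and 13597 (66.8%) lay within 2-fold. With this filter rises outnumbered falls, also at larger sizes: 862 loci rose and 280 fell by 8-fold or more, and 114 rose and 58 fell by 64-fold or more. The loci that rose started low, with a median among protein-coding genes of 1.66 FPKM at 1 d and 13.0 FPKM at 7 d, whereas those that fell went from a median of 32.4 FPKM to 9.32 FPKM. Of the loci that rose, 1731 were below 1 FPKM at 1 d and so entered through their 7 d value, as 511 of those that fell entered through their 1 d value. Among the 17292 loci at 1 FPKM or more at both ages the order was the other way, with 2235 higher and 2276 lower. The median change was −0.10 over all 20350 loci and −0.17 over the 17292, and list medians below are to be read against these values. List counts are to be read against the 19.5% and 13.7% of all nuclear loci. CLPC1, a chaperone of the chloroplast stroma, lay just past the 2-fold line (263.3 FPKM at 1 d and 527.7 FPKM at 7 d), and GGP1, an enzyme of glucosinolate synthesis, just inside it (56.3 FPKM and 113.7 FPKM).

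**Figure D1:**
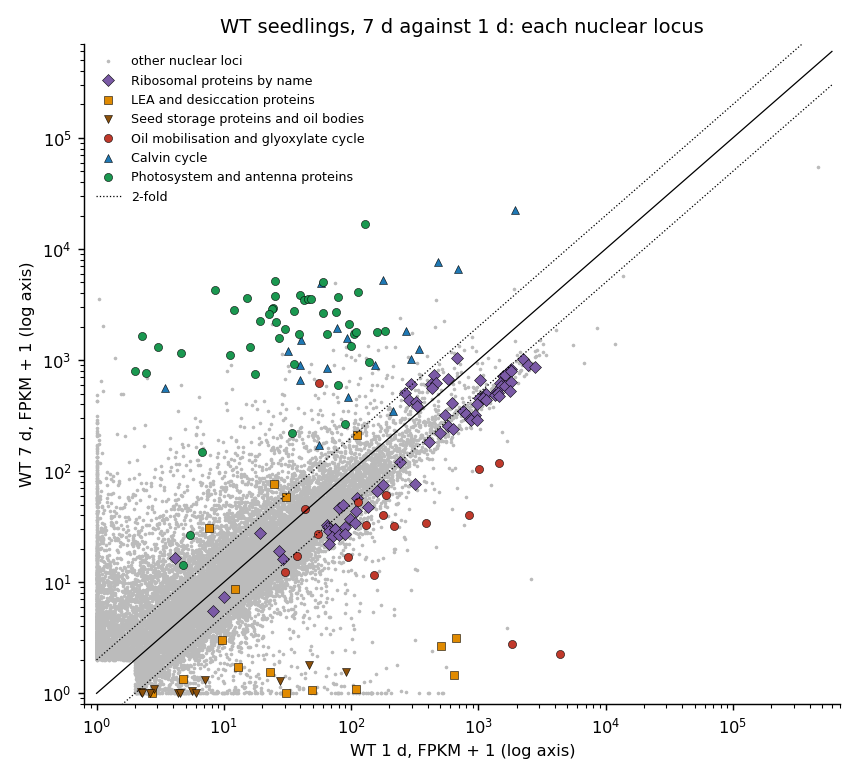
Each point is 1 nuclear locus, with WT FPKM + 1 at 1 d on the horizontal axis and at 7 d on the vertical axis, both on log scales. The solid line marks equal values and the dotted lines 2-fold. All 47 photosystem and antenna genes lie above the upper dotted line, seed storage and oil body genes lie along the bottom edge, and most ribosomal protein genes lie on or under the lower dotted line.

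A single short locus held a large share of the table. AT2G01021, a locus of 102 bases on chromosome 2 (6571 to 6672) close to genes of the cytosolic ribosomal RNA repeat, was listed at 466704 FPKM at 1 d and 54753.8 FPKM at 7 d, which was 32.6% and 5.45% of the nuclear FPKM sum. The 4 nuclear loci annotated as rRNA fell as well, for example AT3G41768 on chromosome 3, from 11766 to 1398 FPKM. Shares of the transcriptome below are given without AT2G01021. Dividing each age by its sum without AT2G01021, or centring each age on its median, turned the direction of no list median.

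The labels were checked against 31 fixed tissue markers. At 1 d 23 of them reached 1 FPKM, and at 7 d 26 did. The embryo and seed markers EM1 (48.4 and 0.0756 FPKM), CRA1 (6.05 and 0.320 FPKM) and OLEO1 (4.64 and 0.0522 FPKM) were present at 1 d and under 1 FPKM at 7 d. The mesophyll markers RBCS1A and LHCB1.3 were present at both ages. CASP1, CASP2 and CASP5 of the root endodermis were listed at 0 at 1 d and the stem cell gene WUS at 0 at 7 d.

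Transcripts for using up seed oil were abundant at 1 d and mostly much lower at 7 d. Of the 18 genes of oil mobilisation and the glyoxylate cycle, 16 fell and 1 rose, with a median change of −2.31, and their joint share of nuclear FPKM went from 1.16% to 0.132%. ICL, which encodes isocitrate lyase of the glyoxylate cycle, made the largest fall of all loci, from 4368 FPKM at 1 d to 1.25 FPKM at 7 d (log2 change −10.92). MLS, malate synthase and the other enzyme particular to that cycle, came next among nuclear loci with 1830 FPKM at 1 d and 1.79 FPKM at 7 d (−9.36). The glyoxylate cycle pair thus fell further than the β-oxidation enzymes that feed it. The multifunctional β-oxidation protein MFP2 went from 843.5 to 39.2 FPKM, the thiolase PED1 from 1012 to 104.2 FPKM, and PCK1, which takes the carbon on towards sugar, from 1454 to 117.0 FPKM. The lipase SDP1, which starts the breakdown of oil bodies, was lower from the outset (29.2 and 11.4 FPKM). PMDH2, a peroxisomal malate dehydrogenase, was the member that rose, from 54.6 to 622.0 FPKM, while its relative PMDH1 fell from 384.0 to 33.2 FPKM. AIM1, a β-oxidation protein, lay within 2-fold (42.6 and 44.4 FPKM).

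Genes for storage proteins were already low at 1 d, while some genes for oil body proteins, such as OLE3, were higher. Of the 16 genes of both kinds, 12 reached 1 FPKM, all 12 of them at 1 d alone, and those 12 fell with a median of −2.30. A locus that enters through the high age has to differ, so this count describes the loci and is no evidence of a joint change. The largest was OLE3, an oleosin that coats oil bodies, with 90.6 FPKM at 1 d and 0.559 FPKM at 7 d. OLEO3, another oleosin, went from 45.8 to 0.797 FPKM and the cruciferin CRA1 from 6.05 to 0.320 FPKM. The 4 that never reached 1 FPKM were OLEO4 (0.615 and 0.776 FPKM), SESA4 (0.724 FPKM and listed at 0), HSD1 (0.341 and 0.0335 FPKM) and CRU2 (0.0671 FPKM and listed at 0).

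The RY element CATGCA, or its reverse complement TGCATG, is the motif to which B3 factors of seed maturation bind, and it was searched for on both strands of the 250 bases before each RefSeq gene start. It was found in 15 of the 16 storage and oil body promoters (93.8%), against 8.49% of all 26470 coding promoters. A match of letters is a description of the sequence and not a binding site. The promoters of the OLE3 and OLEO3 genes are shown because these were the highest of the group at 1 d, with the RY letters in capitals. They are from RefSeq build TAIR10.1, OLE3 from the minus strand of chr3:222828-223077, overlapping the neighbour AT3G01572, and OLEO3 from the plus strand of chr5:20819818-20820067.
OLE3: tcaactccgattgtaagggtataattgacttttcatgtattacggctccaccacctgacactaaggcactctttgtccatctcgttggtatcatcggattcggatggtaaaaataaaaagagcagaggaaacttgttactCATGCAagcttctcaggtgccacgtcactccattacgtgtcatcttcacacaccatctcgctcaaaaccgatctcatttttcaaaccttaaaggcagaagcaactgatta
OLEO3: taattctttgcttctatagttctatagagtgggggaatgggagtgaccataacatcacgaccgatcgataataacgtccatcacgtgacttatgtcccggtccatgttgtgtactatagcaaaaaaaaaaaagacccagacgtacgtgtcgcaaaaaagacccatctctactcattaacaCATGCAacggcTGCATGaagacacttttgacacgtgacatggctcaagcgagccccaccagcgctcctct
OLE3 holds the element in 1 place and OLEO3 in 2.

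Late embryogenesis abundant (LEA) proteins, which protect cells during drying, mostly fell. Of 16 genes, 11 fell and 2 rose, with a median of −2.37. The embryo types fell from high levels: LEA18 from 670.2 to 2.18 FPKM, LEA76 from 645.8 to 0.472 FPKM and LEA4-5 from 506.7 to 1.69 FPKM. ECP63, an embryonic LEA protein, fell from 108.6 to 0.0850 FPKM, and XERO1, a dehydrin of seeds, from 29.6 FPKM to a listed 0. The members that rose were dehydrins also known from cold and drought in leaves, LTI30 (6.69 and 29.7 FPKM) and ERD10 (24.0 and 76.2 FPKM). COR47, of the same kind, was within 2-fold at 110.6 and 208.7 FPKM. Outside the list, the coding genes with the largest falls held further LEA proteins by product name, among them AT5G66780 (522.3 FPKM and listed at 0), LEA7 (314.3 and 2.01 FPKM) and AtLEA4-1 (228.5 and 0.815 FPKM). Other genes with large falls were AT4G36880, a cysteine protease (1668 and 2.87 FPKM), and GPT2, a plastid glucose phosphate transporter (155.5 and 0.484 FPKM). LEA7, AtLEA4-1 and GPT2 were chosen after their values were seen.

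Abscisic acid (ABA) response promoters often carry the ABRE letters ACGTGGC, recognised by bZIP factors, and the G-box CACGTG, recognised by bZIP and bHLH factors. The motifs overlap where the letters read CACGTGGC. The ABRE stood in 6 of the 16 LEA promoters (37.5%, against 3.41% of all coding promoters) and the G-box in 7 (43.8%, against 6.57%). The promoter of XERO1 is shown as one where both motifs overlap, with their letters in capitals. It is from the plus strand of chr3:18941675-18941924 (TAIR10.1).
XERO1: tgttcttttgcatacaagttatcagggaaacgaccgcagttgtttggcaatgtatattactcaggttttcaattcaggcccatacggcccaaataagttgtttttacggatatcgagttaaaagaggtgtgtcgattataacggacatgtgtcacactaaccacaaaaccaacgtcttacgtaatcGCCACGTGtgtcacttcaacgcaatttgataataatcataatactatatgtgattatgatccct
Among the 238 promoters of genes that fell by 8-fold or more, the G-box was found in 21.8% and the RY element in 16.8%, and among the 805 of genes that rose as far, in 7.45% and 11.3%.

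Of the 12 regulators of seed maturation 5 reached 1 FPKM, and 3 of these fell. ABI3, ABI4 and ABI5, the transcription factors through which ABA holds back germination, were at 64.1, 68.9 and 52.7 FPKM at 1 d. At 7 d ABI3 was at 0.0933 FPKM, ABI4 was listed at 0 and ABI5 was at 1.17 FPKM. Of the other 9 seed maturation regulators, BZIP53 (44.5 and 41.9 FPKM) and HSI2 (12.1 and 10.07 FPKM) lay within 2-fold, and 7 never reached 1 FPKM, among them FUS3, LEC1 and BZIP67, which were listed at 0 at both ages. Of the 5 ABA turnover genes at 1 FPKM or more, 3 fell and 1 rose: CYP707A1, CYP707A2 and CYP707A3, which inactivate ABA, went from a joint 50.7 FPKM to 7.32 FPKM. ABA1, which makes the xanthophyll precursor of ABA and also serves the carotenoids of the antenna, rose from 14.7 to 141.3 FPKM.

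The gibberellin pathway, whose hormone drives germination and elongation, changed in a few members. Of 23 genes 20 reached 1 FPKM, 5 fell and 1 rose (median −0.51). GA3OX2, which makes active gibberellin, fell from 67.6 to 2.43 FPKM and GA3OX1 from 20.5 to 7.65 FPKM. Among the 5 DELLA genes, the growth repressors that gibberellin removes, RGL2 (67.3 and 3.87 FPKM) and RGL3 (21.4 and 1.61 FPKM) fell, while RGA1 (48.5 and 33.1 FPKM) and GAI (29.4 and 25.3 FPKM) stayed within 2-fold. The DELLA transcripts at 7 d were therefore mostly those of RGA1 and GAI. The member that rose was GA2OX6, an enzyme that inactivates gibberellin (0.556 and 4.43 FPKM).

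Of 12 expansin, xyloglucan enzyme and related cell wall genes 7 fell and 2 rose (median −1.06). EXPA2, an expansin that loosens cell walls, went from 243.9 to 0.0576 FPKM. XTH5 (159.3 and 7.47 FPKM) and XTH19 (61.9 and 9.64 FPKM), which remodel xyloglucan, fell, and EPR1, an extensin-like gene of the seed endosperm, went from 27.4 FPKM to a listed 0. PRP4, a proline-rich wall protein, rose from 50.1 to 671.2 FPKM and XTH4 from 122.4 to 256.4 FPKM. EXPA1 was within 2-fold (170.5 and 241.3 FPKM).

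All 47 nuclear genes for photosystem subunits and antenna proteins rose, each having reached 1 FPKM already at 1 d, with a median change of 6.17 and a range from 1.55 to 9.49. Together they held 0.233% of nuclear FPKM at 1 d and 12.02% at 7 d. The background share of loci that rose was 19.5%.

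The LHCB antenna had the largest median. The 15 LHCB genes, for the light-harvesting proteins of photosystem II, went from a summed 389.8 FPKM to 47900 FPKM with a median of 7.04, and the 6 LHCA genes of photosystem I had a median of 5.87. LHCB1.3 was the highest of them at both ages (127.6 and 16930 FPKM). LHCB1.4 made the largest rise of the list, from 1.28 to 1637 FPKM (9.49), followed among antenna genes by LHCB1.1 (7.59 and 4303 FPKM) and LHCB2.2 (1.01 and 797.9 FPKM). LHCB1.1, LHCB1.2 and LHCB1.3 lie side by side on chromosome 1 and are near-identical, so the division of reads among them is uncertain. Among the antenna genes that moved least, LHCB7 went from 3.76 to 13.3 FPKM, LHCB4.3 from 4.45 to 25.8 FPKM and LHCA5 from 33.5 to 218.2 FPKM.

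The 13 photosystem I subunits had a median of 6.34 and the 12 photosystem II subunits 4.37. At the upper end were PSAO and PSAK, small photosystem I subunits (14.2 and 3624 FPKM for PSAO, 11.0 and 2799 FPKM for PSAK), and PSBQ-2 of the oxygen-evolving complex (2.01 and 1308 FPKM). PSBQ-2 had a sister gene, PSBQA, that was already expressed at 1 d (108.3 and 1780 FPKM), so the pair reached like levels from unlike starts. The assembly proteins PSB27 (77.3 and 590.6 FPKM) and PSB28 (89.1 and 263.0 FPKM) moved least among photosystem II genes.

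G-boxes occurred in 11 of the 47 promoters (23.4%) and the ABRE letters, which overlap them, in 10 (21.3%). The light-related I-box, GATAAG, stood in 9 (19.1%, against 12.2% of all coding promoters). The promoters of PSBQ-2 and of the photosystem I gene PSAH2 (29.0 and 1918 FPKM) are shown as members with both motifs, which are in capitals and can be set beside that of XERO1, a gene that moved the other way. They are from the minus strand of chr4:2673244-2673493 and the plus strand of chr1:19454548-19454797 (TAIR10.1), the latter overlapping AT1G52220.
PSBQ-2: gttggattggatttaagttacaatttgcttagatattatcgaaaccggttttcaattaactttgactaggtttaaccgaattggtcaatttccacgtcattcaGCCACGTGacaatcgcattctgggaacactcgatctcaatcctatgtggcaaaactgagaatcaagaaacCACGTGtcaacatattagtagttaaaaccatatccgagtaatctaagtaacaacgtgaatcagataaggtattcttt
PSAH2: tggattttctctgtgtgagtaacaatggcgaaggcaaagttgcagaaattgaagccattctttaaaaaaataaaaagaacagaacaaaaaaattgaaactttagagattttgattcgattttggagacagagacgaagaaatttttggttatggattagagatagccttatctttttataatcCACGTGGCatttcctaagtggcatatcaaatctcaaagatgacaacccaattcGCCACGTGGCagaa
PSBQ-2 holds 2 G-boxes and 1 ABRE, PSAH2 2 G-boxes and 3 ABRE matches.

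Of 11 genes for electron carriers and ATP synthase subunits, 10 rose (median 3.30), led by the plastocyanins PETE1 (3.37 and 348.0 FPKM) and DRT112 (73.7 and 4985 FPKM), copper proteins that carry electrons to photosystem I. Ferredoxin FD1 was within 2-fold (643.1 and 841.9 FPKM), while the ferredoxin FED A rose from 459.5 to 3454 FPKM. At 1 d both ferredoxins were higher, per length, than any of the 47 photosystem and antenna genes.

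In the Calvin cycle 19 of 20 genes rose (median 3.86), and the share of the list went from 0.532% to 6.56%. The 4 RBCS genes for the small subunit of Rubisco, which fixes CO2, went from a summed 3288 FPKM to 42160 FPKM. RBCS1A was the most abundant nuclear locus at 7 d apart from AT2G01021, with 1942 FPKM at 1 d and 22628 FPKM at 7 d. RBCS1B, RBCS2B and RBCS3B lie in tandem on chromosome 5 and share reads, and of the 3 RBCS1B rose furthest (178.0 and 5294 FPKM). The largest changes of the list were of CP12-2, a redox-dependent regulator (2.45 and 558.1 FPKM), and RCA, Rubisco activase (57.1 and 4896 FPKM). CP12-1, a second regulator of that kind, was already at 341.1 FPKM at 1 d and reached 1269 FPKM. Triose phosphate isomerase TIM was the member within 2-fold, at 214.1 and 350.0 FPKM.

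The largest rise of all loci was CA1, carbonic anhydrase, which interconverts CO2 and bicarbonate in the chloroplast stroma. It was at 0.0454 FPKM at 1 d and 3511 FPKM at 7 d (log2 change 11.71). CA2, a related carbonic anhydrase, went from 0.407 to 1036 FPKM (9.53). Neither gene was in a list, and both were named for the size of their change.

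Photorespiration recycles the product of oxygen fixation by Rubisco. Of its 12 genes 10 rose (median 3.51), from the peroxisomal aminotransferase AGT (1.497 and 688.7 FPKM) and the hydroxypyruvate reductase HPR (9.51 and 788.9 FPKM) to the glycine decarboxylase subunit GDCH (159.8 and 594.3 FPKM). GOX2, a glycolate oxidase (247.0 and 438.1 FPKM), and the catalase CAT2 (701.0 and 630.8 FPKM) did not reach 2-fold. CAT2 also removes the peroxide made by β-oxidation in the seedling peroxisome. The list of oil mobilisation and the glyoxylate cycle thus mostly fell and that of photorespiration mostly rose. The photorespiration list also holds enzymes outside the peroxisome, such as GDCH, and its peroxisomal members were not counted apart.

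Of 20 chlorophyll synthesis genes 12 rose and none fell (median 1.36). GUN5, the H subunit of magnesium chelatase, rose from 27.6 to 488.8 FPKM, CHLP, which makes the phytol tail, from 99.1 to 1075 FPKM, and HEMA1, the first committed enzyme, from 21.1 to 171.0 FPKM. The early steps GSA1 (128.9 and 145.0 FPKM), GSA2 (170.9 and 167.1 FPKM) and HEMB1 (135.4 and 176.2 FPKM) were within 2-fold. Of the light-dependent protochlorophyllide reductases, PORA was within 2-fold (7.98 and 11.7 FPKM), PORB rose from 209.8 to 508.7 FPKM and PORC from 69.3 to 195.8 FPKM.

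**Figure D2:**
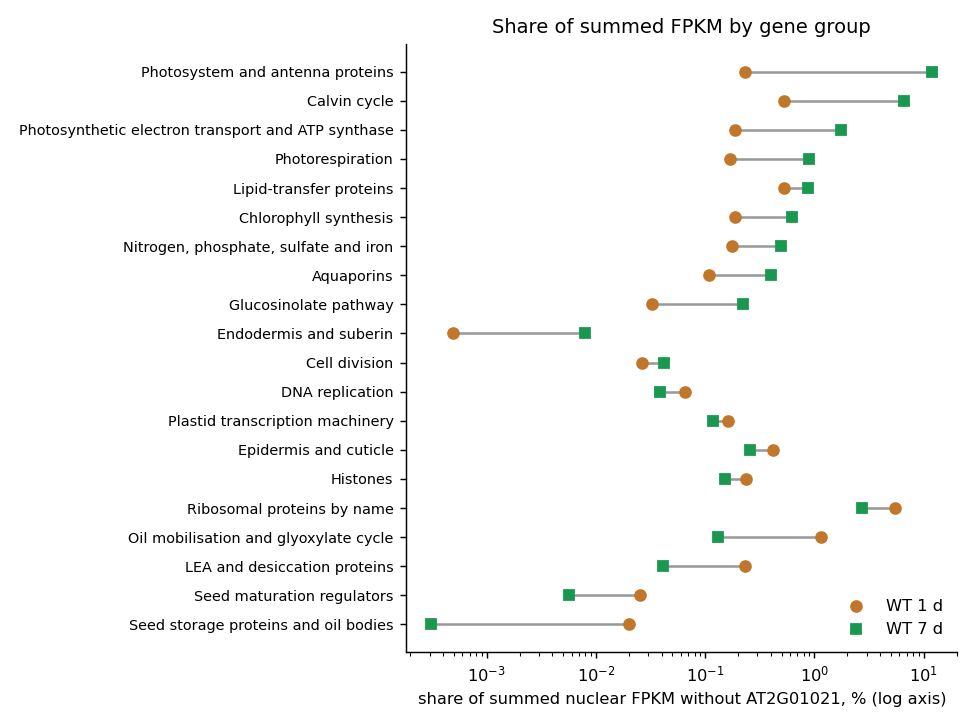
Share of the summed nuclear FPKM, without AT2G01021, held by each gene group in WT at 1 d (circles) and 7 d (squares), on a log axis in percent. Photosystem and antenna genes went from 0.233% to 12.02% and oil mobilisation genes from 1.16% to 0.132%.

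Genes for plastid transcription moved in both directions. Of the 6 sigma factor genes 4 rose: SIG5 from 1.16 to 15.9 FPKM, SIG1 from 13.9 to 88.8 FPKM, SIG3 from 8.32 to 24.7 FPKM and SIG4 from 10.8 to 25.4 FPKM. SIG2, the gene mutated in the other line of the study, was the highest of them at 1 d (66.5 FPKM) and within 2-fold at 7 d (87.7 FPKM), and SIG6 was similar (42.8 and 49.3 FPKM). SIG2 and SIG6 were thus the highest sigma factor genes at 1 d, and SIG1 and SIG2 at 7 d. Of the other 14 genes, for proteins bound to the plastid-encoded polymerase and for the phage-type polymerases, none rose and 8 fell (median −1.07). Among these were PTAC10 (150.4 and 47.0 FPKM), FLN1 (110.8 and 39.2 FPKM), HMR (115.7 and 51.7 FPKM), the thioredoxin TRXZ (153.6 and 71.3 FPKM) and the plastid phage-type polymerase RPOTP (41.0 and 19.5 FPKM).

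Plastid loci themselves did not follow the nuclear photosynthesis genes. Of the 79 plastid loci 5 rose (6.33%) and 33 fell (41.8%), with a median of −0.79 and a summed level of 4424 FPKM at 1 d and 2459 FPKM at 7 d. The short tRNA loci held 2466 FPKM of that sum at 1 d and 764.4 FPKM at 7 d, so most of its drop lay in them. Most plastid transcripts lack a poly(A) tail, so these libraries sample them incompletely and their levels are not those of the plastid. The single-condition tables gave the same values as the combined table for every locus.

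Among plastid gene families, the median was highest in the photosystem II genes. Of 13 psb loci, leaving out PSBG, now known as the NDH subunit gene ndhK, 3 rose and none fell (median 0.43): PSBA, for the D1 reaction centre protein, went from 10.7 to 34.9 FPKM, PSBL from 44.1 to 132.9 FPKM and PSBN from 16.3 to 45.5 FPKM. The photosystem I gene PSAJ rose from 36.3 to 124.9 FPKM, while PSAA (8.14 and 6.14 FPKM) and PSAB (8.97 and 9.24 FPKM), for its reaction centre, were within 2-fold and PSAC fell from 16.1 to 7.04 FPKM. RBCL, the large subunit of Rubisco, was at 22.8 and 25.3 FPKM (log2 change 0.15), beside the 4 nuclear RBCS genes with a median of 3.77. Of 17 loci of ribosomal proteins 13 fell and 1, RPL32, rose (median −1.75). The 4 rpo loci for the polymerase core had a median of −1.55 and fell in 3 cases, RPOB being just inside at 8.11 and 3.75 FPKM. CLPP1, a protease subunit, fell from 22.4 to 4.28 FPKM and MATK, a splicing factor, from 14.3 to 2.25 FPKM. The largest changes were of tRNA loci that were listed at 0 at 7 d, TRNH (833.4 FPKM at 1 d), TRNT.2 (431.8 FPKM) and TRNR.1 (288.2 FPKM), where a 0 may be a failed estimate.

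All 24 mitochondrial loci that were included were lower at 7 d. None of the 24 rose and 20 fell (83.3%), with a median of −2.18 and a summed level of 1542 FPKM at 1 d and 192.6 FPKM at 7 d. Most of the 24 were under 1 FPKM at 7 d and entered through their 1 d value. Such loci had to be lower, so the count describes the loci and is no evidence of a joint change. ORF107A went from 822.9 to 100.4 FPKM, the ribosomal RNA loci RRN26 from 330.7 to 32.0 FPKM and RRN18 from 208.1 to 34.1 FPKM, and the joint locus of RPL16 and RPS3 from 22.2 to 1.24 FPKM. ORF107A, RRN26 and RRN18 made up most of the summed level at both ages. Respiratory chain genes of this genome were listed at low values at both ages, for example COX1 (2.97 and 0.473 FPKM) and NAD9 (11.1 and 0.725 FPKM). The libraries were poly(A)-selected, so these values need not be the levels in the mitochondrion. AT2G01021 and the nuclear loci of ribosomal RNA fell over the same ages, and their part in the mitochondrial result was not tested.

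**Figure D3:**
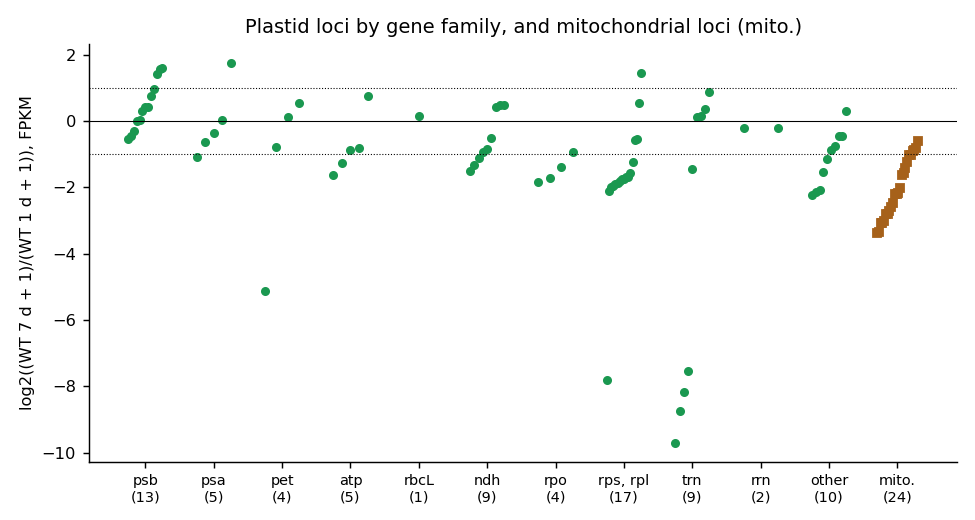
Change from 1 d to 7 d in WT, as log2((7 d + 1)/(1 d + 1)) of FPKM, of each plastid locus by gene family and of each mitochondrial locus, with the number of loci in brackets. The dotted lines mark 2-fold. The psb loci lie around and above 0, most rps and rpl loci near −1.75, and all 24 mitochondrial loci below 0.

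Ribosomal protein genes mostly fell. Of 84 genes with ribosomal protein as their product name, 74 reached 1 FPKM, of which 49 fell and 2 rose, with a median of −1.19, and their share of nuclear FPKM went from 5.46% to 2.75%. They were abundant at both ages: AT3G05590 was at 2793 and 864.9 FPKM, and AT3G08520, of the RPL41 family, at 13770 and 5673 FPKM. EF1ALPHA, the elongation factor often used as a reference gene, fell alike, from 4082 to 1849 FPKM. Genes known to encode proteins of the plastid ribosome were also in the list, and these were at its upper end, with RPL27 (293.3 and 602.3 FPKM) past 2-fold like AT5G02440 (3.12 and 15.6 FPKM), and SSR16 (681.9 and 1042 FPKM) and AT1G64510 (265.6 and 508.9 FPKM) within it.

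Site II (TGGGCC) and the telo-box (AAACCCTA) are letters known from ribosomal protein promoters. Site II was found in 39 of the 84 promoters (46.4%, against 13.9% of all coding promoters) and the telo-box in 15 (17.9%, against 4.45%). Neither share was particular to this list. Site II stood in 7 of 15 DNA replication promoters (46.7%) and the telo-box in 130 of 624 F-box promoters (20.8%). The promoter of AT3G23390, a member with both, is shown from the plus strand of chr3:8375083-8375332 (TAIR10.1), where it overlaps RIC5, with the letters of both motifs in capitals on either strand.
AT3G23390: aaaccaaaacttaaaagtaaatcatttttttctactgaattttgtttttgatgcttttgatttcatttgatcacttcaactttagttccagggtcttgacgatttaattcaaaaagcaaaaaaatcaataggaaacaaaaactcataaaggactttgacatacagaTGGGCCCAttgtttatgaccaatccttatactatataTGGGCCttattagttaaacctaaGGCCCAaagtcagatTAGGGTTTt
Site II is present in 4 matches, counting both strands of the palindrome TGGGCCCA.

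Of 20 mitotic and other cell division genes 4 rose (20%, near the 19.5% of all nuclear loci) and none fell (median 0.51). Of 15 DNA replication genes none rose and 4 fell (26.7%, against 13.7% of nuclear loci), with a median of −0.85 and all 15 below 0. The difference between these lists was not tested. The cytokinesis syntaxin KN (27.1 and 83.3 FPKM) and the B-type cyclin CYCB1;2 (14.3 and 32.4 FPKM) rose. The replication licensing factor CDC6 (9.21 and 3.07 FPKM), the helicase subunit MCM5 (39.2 and 16.9 FPKM) and the sliding clamps PCNA1 (90.2 and 44.1 FPKM) and PCNA2 (69.7 and 32.7 FPKM) fell. The MSA core CCAACGG of mitotic promoters stood in 6 of the 20 cell division promoters (30%, against 1.52% of all). The promoter of CYCB1;2, from the minus strand of chr5:1861704-1861953 (TAIR10.1), holds it in 2 places, in capitals.
CYCB1;2: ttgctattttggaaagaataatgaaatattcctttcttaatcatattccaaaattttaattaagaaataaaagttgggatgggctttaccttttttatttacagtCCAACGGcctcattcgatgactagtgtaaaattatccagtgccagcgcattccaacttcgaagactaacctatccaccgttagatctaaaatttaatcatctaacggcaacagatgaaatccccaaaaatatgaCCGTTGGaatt
One match of CYCB1;2 is on each strand.

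Of 9 genes of endodermis and suberin 8 rose (median 2.03), most of them entering through their 7 d value: CASP1, a scaffold of the Casparian strip, went from a listed 0 to 19.8 FPKM, ESB1 from 3.504 to 14.3 FPKM, and CYP86A1, a suberin enzyme, from a listed 0 to 17.2 FPKM. Of 19 root hair genes and their extensins none rose and 4 fell (median −0.24). RSL4 (5.55 and 0.704 FPKM) and RHD6 (9.21 and 2.26 FPKM), the transcription factors that start hair growth, were among those that fell, while the wall genes EXPA7 (5.47 and 4.76 FPKM) and EXT13 (10.9 and 16.9 FPKM) were within 2-fold. The 7 root meristem genes lay within 2-fold, for example SHR at 8.81 and 10.7 FPKM and PLT2 at 2.88 and 1.01 FPKM.

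Vascular genes rose in 5 of 9 cases (median 1.09). SUC2, the sucrose carrier of phloem companion cells, went from 19.5 to 85.5 FPKM, the xylem protease XCP2 from 17.04 to 43.2 FPKM and the lignin laccase LAC17 from 2.29 to 9.06 FPKM. The cellulose synthases IRX1, IRX3 and CESA4 of secondary walls were within 2-fold. The highest at 1 d was IRX3 (5.67 and 6.08 FPKM) and at 7 d CESA4 (5.57 and 8.30 FPKM).

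Of 12 aquaporin genes 10 reached 1 FPKM, and 9 of these rose (median 2.81). TIP2;1, a vacuolar channel, went from 9.44 to 411.9 FPKM and TIP1;2 from 145.3 to 763.1 FPKM, while the plasma membrane channel PIP2;7 was within 2-fold (314.5 and 440.3 FPKM). The seed-type TIP3;1 (0.805 and 0.0996 FPKM) and TIP3;2 (0.468 FPKM and listed at 0) were those under 1 FPKM.

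In the epidermis list 2 of 11 rose and 3 fell (18.2% and 27.3%, against 19.5% and 13.7% of all nuclear loci). CUT1, which elongates wax fatty acids, rose from 39.7 to 222.3 FPKM. CER1, which makes wax alkanes, fell from 220.6 to 18.9 FPKM and the lipid-transfer protein LP2 from 1680 to 184.3 FPKM. Of the stomatal genes FMA, the factor of the last step to guard cells, rose from 1.402 to 10.6 FPKM, while SPCH, the factor of the first step, was at 22.8 and 15.6 FPKM. GL1, a trichome factor, was listed at 0 at 1 d and at 3.05 FPKM at 7 d. CLV1, a receptor of the shoot meristem, rose from 4.09 to 20.9 FPKM, and STM, which maintains the meristem, was at 3.69 and 3.60 FPKM. AFO, a leaf polarity factor, fell from 98.1 to 38.1 FPKM.

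Among 7 photoreceptor genes 1 fell and 1 rose. PHYA, the light-labile phytochrome, fell from 105.6 to 35.2 FPKM, and PHYB, the main red-light receptor of green tissue, was at 29.9 and 23.2 FPKM. CRY1, a blue-light receptor, rose from 21.2 to 68.0 FPKM. The PIF genes, for bHLH factors that phytochromes remove, divided into PIF7 (0.842 and 16.95 FPKM), PIF4 (3.37 and 12.01 FPKM) and PIL6, also called PIF5 (7.90 and 31.3 FPKM), which rose, and PIF3 (42.5 and 10.9 FPKM) and PIL5, also called PIF1 (37.4 and 13.5 FPKM), which fell. At 1 d the PIF transcripts were mostly PIF3 and PIL5, and at 7 d PIL6 was the highest of these 5. GLK1 (22.3 and 75.9 FPKM) and GLK2 (34.6 and 115.5 FPKM), activators of photosynthesis genes, rose, HY5 was at 36.1 and 20.9 FPKM, and ELIP1, a protective pigment-binding protein of early greening, fell from 162.7 to 14.8 FPKM.

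Of 11 circadian clock genes 3 rose, RVE8 (2.85 and 44.3 FPKM), CCA1 (3.11 and 36.4 FPKM) and LHY (12.6 and 93.2 FPKM), all MYB-like factors that peak at dawn in cycling plants. ELF4, of the evening complex, fell from 225.2 to 50.0 FPKM, and the evening gene TOC1 was within 2-fold (21.6 and 24.8 FPKM). Each age is 1 time of sampling, whose hour is not given in the sources used here.

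Glucosinolates are the defence compounds of the Brassicaceae, and 17 of 22 genes of their pathway rose and 1 fell (median 3.79). All 10 genes of the aliphatic branch, made from methionine, rose, from a summed 0.438 FPKM to 544.6 FPKM (median 5.62), each having been under 1 FPKM at 1 d. All 10 thus entered through their 7 d value and could not have fallen, so this count is no evidence of a joint change. MAM1, which lengthens the side chain, went from 0.0714 to 117.5 FPKM, CYP83A1 from a listed 0 to 105.5 FPKM, and MYB28, the factor that activates the branch, from 0.336 to 62.1 FPKM, the largest rise among transcription factors by product name. Of the 5 genes of the indolic branch, made from tryptophan, 2 rose and 1 fell, and their sum was 173.1 and 176.5 FPKM at 1 d and 7 d. The indolic genes CYP83B1 (73.2 and 65.3 FPKM) and MYB34 (67.8 and 31.6 FPKM) were thus measured at 1 d, when every aliphatic one was under 1 FPKM. The myrosinases TGG1 (47.0 and 929.0 FPKM) and TGG2 (5.02 and 212.6 FPKM), which release the toxic products, rose too.

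Jasmonate and defence genes rose in 12 of the 17 cases that reached 1 FPKM (median 2.34). Some of these, such as LOX2, AOC2 and PDF1.2, were under 1 FPKM at 1 d and entered through their 7 d value. Such genes could not have fallen, so the count is no evidence of a joint change. LOX2 (0.0414 and 175.6 FPKM), AOC2 (listed at 0 and 94.3 FPKM) and AOS (6.52 and 66.5 FPKM) are successive enzymes of jasmonate synthesis in the plastid. The defensin PDF1.2 went from a listed 0 to 25.8 FPKM, PAD4 and EDS1, lipase-like immune regulators, from 1.32 to 6.55 FPKM and from 1.31 to 11.5 FPKM, and PR1 was listed at 0 at both ages. The jasmonate repressor JAZ1 fell from 25.6 to 11.5 FPKM. A defensin-like gene outside the list, AT3G05730, made the second largest rise of all loci, from 0.131 to 2012 FPKM (log2 change 10.80).

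In the flavonoid pathway 5 of 12 genes rose and 1 fell, the rises being in late steps and in an activator. DFR (0.0944 and 9.86 FPKM), LDOX (0.277 and 9.08 FPKM) and TT19 (0.467 and 10.3 FPKM), which make and move anthocyanin, rose, as did their activator PAP1 (0.290 and 1.65 FPKM). Each of these named genes was under 1 FPKM at the younger age and entered through its value at the older age. None of them could have fallen, so their rises are no evidence of a joint change in the late steps. Chalcone synthase TT4 was at 147.2 and 143.3 FPKM and the flavonol synthase FLS1 at 48.5 and 48.5 FPKM. F3H, between the early and late steps, fell from 78.4 to 37.6 FPKM.

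Nutrient uptake and assimilation rose in 13 of 23 genes and fell in 2 (median 1.55). IRT1, the iron transporter of the root surface, went from a listed 0 to 50.3 FPKM, FRO2, the ferric reductase beside it, from 1.19 to 14.4 FPKM, and the ferritin FER2, which stores iron in seeds, from 70.4 to 1.38 FPKM. Of the glutamine synthetases, the plastid enzyme GS2 rose from 100.8 to 1841 FPKM, and the cytosolic GSR 1 fell from 445.9 to 68.2 FPKM. NIA2, nitrate reductase, rose from 50.6 to 487.1 FPKM, NIR1 was within 2-fold (201.0 and 212.7 FPKM) and the ammonium transporter AMT1;2 rose from 4.13 to 72.3 FPKM.

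Among the 937 members whose product name marks a transcription factor, 183 rose (19.5%) and 110 fell (11.7%), against 19.5% and 13.7% of all loci. After MYB28 came AT1G19960, a transcription factor by product name (0.279 and 43.1 FPKM), and the B-box genes BBX15 (2.22 and 109.9 FPKM), BBX14 (4.18 and 170.0 FPKM) and BBX16 (listed at 0 and 26.0 FPKM). The largest falls of loci so marked were of LATE, a zinc finger factor (76.9 FPKM and listed at 0), ABI3, and the bHLH genes HEC2 (46.7 and 0.0996 FPKM) and HEC1 (101.4 and 2.07 FPKM). HEC3, another HECATE gene of the bHLH list, also fell (16.6 and 0.267 FPKM). By family 31 of 75 MYB genes rose and 8 fell, 27 of 96 bHLH genes rose and 17 fell, 12 of 51 WRKY genes rose and 2 fell, and 8 of 63 NAC genes rose and 14 fell. The bHLH factors with the largest rises were HBI1 (0.955 and 45.0 FPKM), a promoter of growth, and UNE10, also called PIF8 (0.690 and 34.3 FPKM).

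Lipid-transfer proteins, small secreted proteins of the cell surface, rose in 47 of 70 cases and fell in 10 (median 2.33), and cytochrome P450 genes, which oxidise hormones and defence compounds, rose in 67 of 145 and fell in 26 (median 0.89). Pentatricopeptide repeat proteins, which process organelle RNA, rose in 9 of 255 (3.53%) and fell in 42 (16.5%), with a median of −0.59. Of all nuclear loci 19.5% rose and 13.7% fell. The shares that fell among lipid-transfer (14.3%), P450 (17.9%) and pentatricopeptide repeat genes lay near the latter. F-box genes, which select proteins for degradation, were mostly within 2-fold, 8 of 163 rising and 10 falling.

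**Figure D4:**
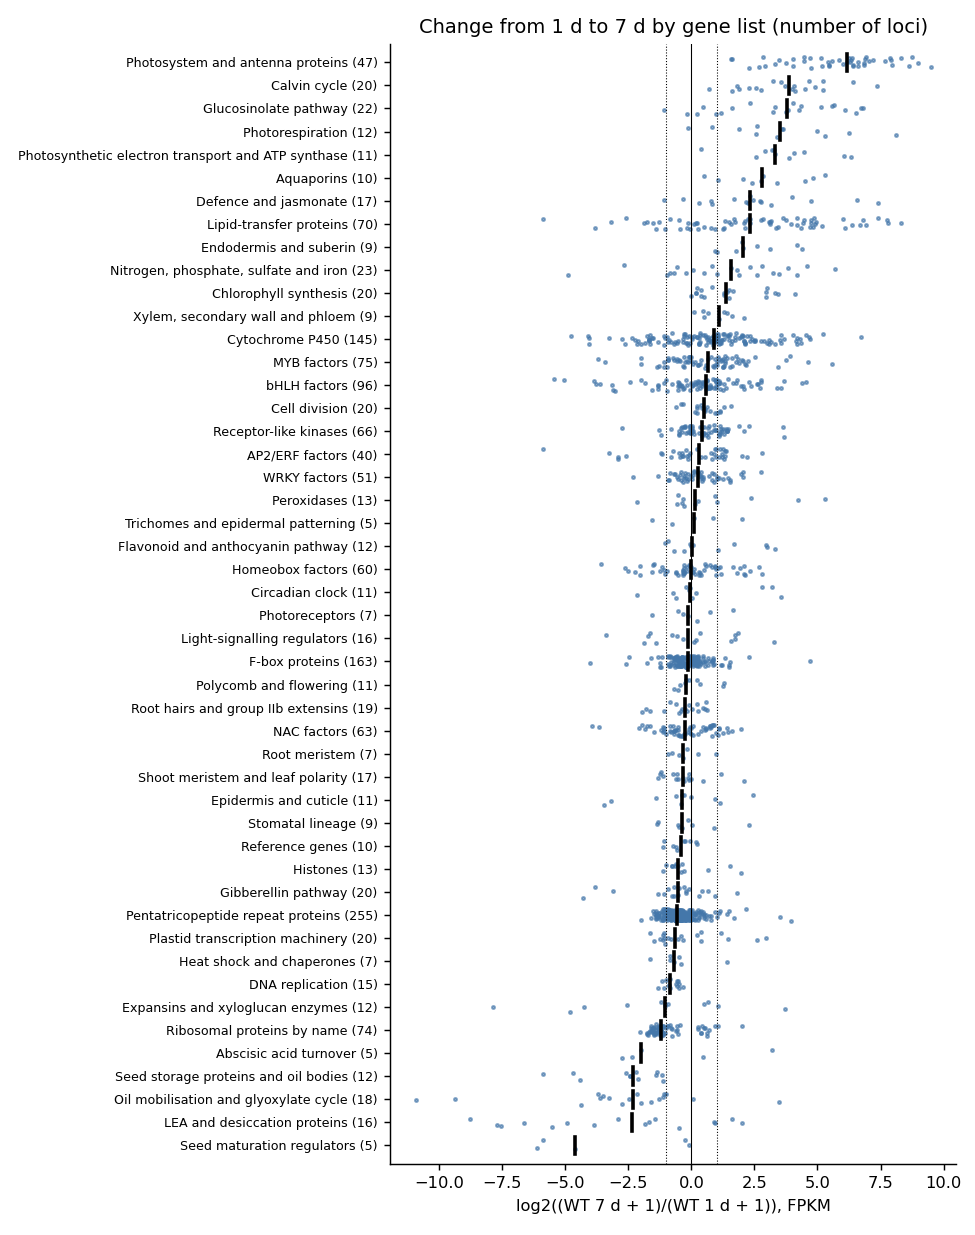
Change from 1 d to 7 d in WT, as log2((7 d + 1)/(1 d + 1)) of FPKM, of each locus (points) in each gene list, with the list median as a black bar and the number of loci in brackets. The dotted lines mark 2-fold. Photosystem and antenna proteins (median 6.17) stand at the top, and oil mobilisation (−2.31), LEA proteins (−2.37) and the 5 seed maturation regulators at the bottom.

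Some large changes lay side by side on the chromosomes. Counting runs of 3 or more neighbouring coding members that all changed by 8-fold or more in the same direction gave 11 runs that rose and 1 that fell. The longest held 6 lipid-transfer genes on chromosome 4 (11844506 to 11858970, AT4G22485 to AT4G22520), whose log2 changes ran from 4.82 to 8.30, and the next 5 glycine-rich protein genes on chromosome 2 (1966816 to 2034217), among them GRP9 (0.121 and 524.1 FPKM). The run that fell was of 3 invertase inhibitor genes on chromosome 5 (19058168 to 19062780), AT5G46940, AT5G46950 and AT5G46960. Most of these runs are of related copies that can share reads, so their values are not separate measurements.

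Small RNA precursors were listed as well, although a poly(A)-selected library holds only their unprocessed transcripts. Of 61 miRNA loci 37 rose and 14 fell, many of them from a listed 0. MIR398b made the largest rise, from a listed 0 to 483.6 FPKM, at a locus listed as 4691006 to 4694086 on chromosome 5, which spans more than its hairpin. Its neighbour MIR398c, which gives the same mature miRNA, was at 5.91 and 6.15 FPKM. miR398, known to target copper superoxide dismutases, is shown from the plus strand of chr5:4691107-4691127 (TAIR10.1) with its seed, bases 2 to 8, in capitals and T for U.
miR398b-3p: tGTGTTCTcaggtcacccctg
Its known targets were chosen after values had been seen. CSD2, the plastid copper-zinc superoxide dismutase, was at 258.7 and 128.6 FPKM, at the 2-fold line. CSD1 of the cytosol (296.1 and 184.4 FPKM) and the copper chaperone CCS (39.9 and 31.4 FPKM) were within 2-fold. The iron enzyme FSD1, not a target, rose from 111.4 to 605.9 FPKM. Any effect of miR398 on these transcripts was not tested.

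Of 10 genes commonly used as references none rose and 2 fell, EF1ALPHA and TUB2 (419.8 and 197.9 FPKM), with a median of −0.42. ACT2 (321.4 and 369.7 FPKM), UBQ10 (681.0 and 768.7 FPKM), UBC21 (46.8 and 45.1 FPKM) and PP2AA3 (57.8 and 48.7 FPKM) changed little.

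The age change of WT was set beside that of sig2-2, with which it shares no samples. Over the 20350 loci the age changes of the 2 lines had a Spearman correlation of 0.84, a description across genes that are not independent. In sig2-2 3848 of these loci (18.9%) rose and 3035 (14.9%) fell. Of the 3966 loci that rose in WT 2924 (73.7%) rose in sig2-2, and of the 2787 that fell 2010 (72.1%) fell. The genes at the extremes of WT moved the same way there, ICL from 5310 to 35.2 FPKM and CA1 from a listed 0 to 2255 FPKM.

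The medians of some groups differed between the lines, and these differences were not tested. Plastid loci had a median of −0.79 in WT and 3.09 in sig2-2, where all 79 were higher at 7 d by 2-fold or more. Root hair genes had −0.24 in WT and −4.24 in sig2-2, and glucosinolate genes 3.79 and 0.93. MYB28 rose in both lines (0.580 and 23.2 FPKM in sig2-2), while CYP79F1 of its pathway went from a listed 0 to 67.6 FPKM in WT and from a listed 0 to 0.852 FPKM in sig2-2. Chalcone synthase TT4, within 2-fold in WT, went from 194.4 to 20.4 FPKM in sig2-2. For photosystem and antenna genes the medians were 6.17 and 5.11.

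**Figure D5:**
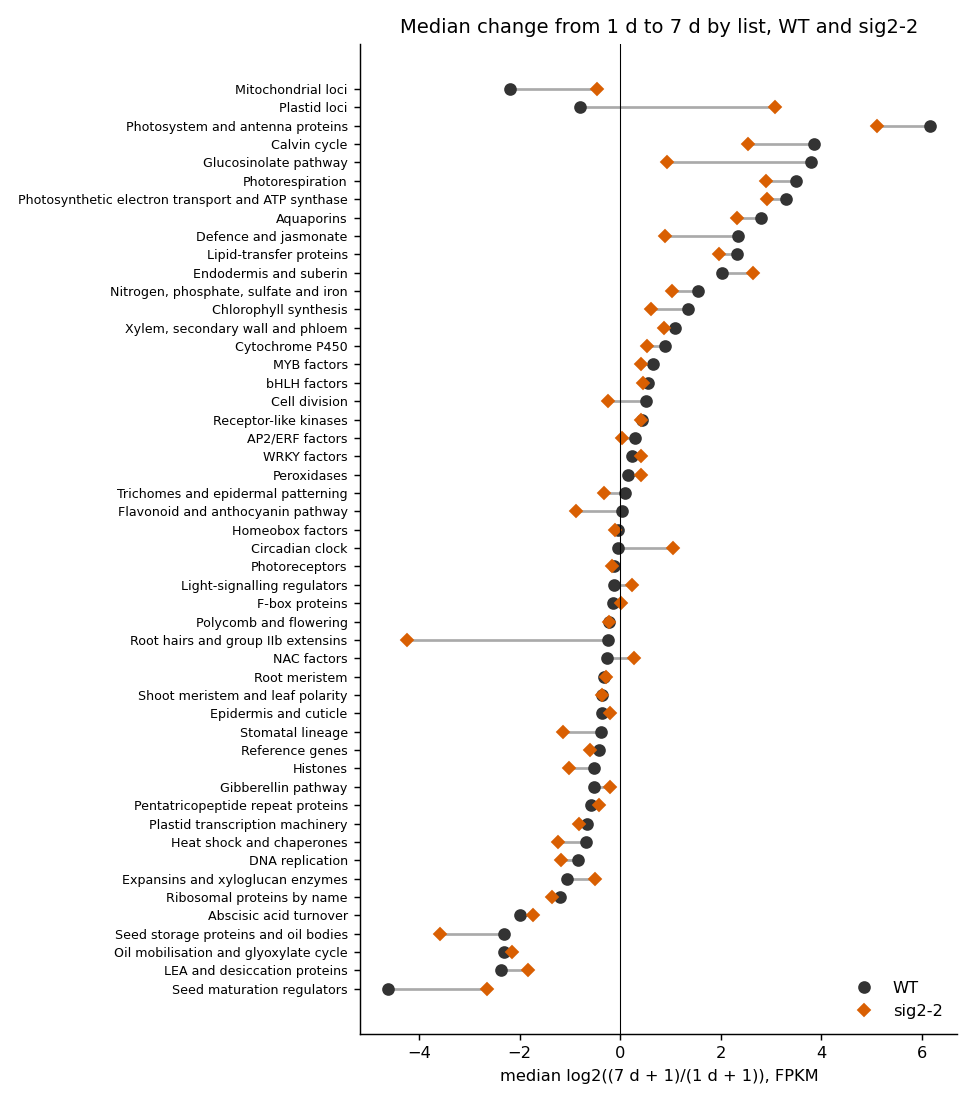
Median change from 1 d to 7 d, as log2((7 d + 1)/(1 d + 1)) of FPKM, of each gene list and of the plastid and mitochondrial loci in WT (circles) and sig2-2 (diamonds). The pairs furthest apart are the plastid loci (−0.79 and 3.09) and the root hair genes (−0.24 and −4.24).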

How the data were processed

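RNA-seq of whole seedlings was deposited as tables of FPKM values, which the authors computed with Cufflinks and Cuffdiff per the submitters' processing notes, combining the 3 replicates of a condition into 1 value. The aligner, the tool versions, the annotation and the genome build are not given in the sources used here. The deposited FPKM values give no read depth: the lowest values showed no clear steps of whole reads, so no counting interval can be given. The tables also hold 10 columns of the authors' own comparisons (log2 ratios, test statistics, p-values, q-values and calls), which were not used.

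Loci at 1 FPKM or more at either age were kept, and log2((7 d + 1)/(1 d + 1)) was computed with Python 3.11.15, pandas 2.3.3 and numpy 2.4.6, with figures by matplotlib 3.10.9. The calculation was checked on simulated data. Loci were placed on RefSeq TAIR10.1 by identifier and position (32060 nuclear loci) or by position alone (479), and 539 were not placed. For 16141 of those placed, at least 1 bound equalled that of TAIR10.1. Gene coordinates are those of the deposited table, while promoter and miRNA sequences are from TAIR10.1.

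The members, the 34 gene lists and the 14 lists by product name were chosen with earlier results of these data known. Genes were named by rule: the 12 largest rises and falls, the 10 highest values at each age, the 6 largest rises and falls among transcription factors, in each list the 2 to 4 largest changes in each direction and the highest member, SIG2, the reference genes, and the 3 largest rises and falls and the highest value at each age among organelle loci. Other members were named after their values were seen. Alternatives changed the pseudocount, the filter, the scale, the fold and the source table.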

Additional observations from a re-analysis of the deposited data

Results flagged for a closer look

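At 63 nuclear loci placed on the annotation, 26 of them with under 300 exonic bases, and at 33 plastid loci the change with age passed 2-fold in opposite directions in WT and sig2-2. The 10 described here are the 6 coding genes whose changes lay furthest apart among those with 300 or more exonic bases that reached 20 FPKM in 1 or more of the 4 conditions, and 4 short loci. The difference between the lines was not tested, since each condition is 1 combined value.

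The 6 coding genes were higher at 7 d in WT and lower in sig2-2. NAS4, a nicotianamine synthase of metal transport, had a log2 change of 1.61 in WT (21.1 and 66.7 FPKM) and −2.79 in sig2-2 (44.6 and 5.603 FPKM). The peroxidase gene AT1G05250 had 1.07 in WT (3.37 and 8.16 FPKM) and −4.03 in sig2-2 (31.9 and 1.01 FPKM). AGP3, an arabinogalactan protein of the cell surface, had 1.00 and −3.70, and AT5G57625, a secreted cysteine-rich protein, 1.09 and −3.40. PDF2.1, a defensin-like gene, had 3.39 and −1.25, and AT2G14247, uncharacterised, 3.79 and −1.38. In all 6 the sig2-2 values were above those of WT at 1 d and below them at 7 d. Picking genes by opposite changes that lay furthest apart favours such a crossing, so it is no separate result.

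The other 4 were short RNA loci with a listed 0 in at least 1 condition. The small nucleolar RNA locus U60.1F had 8.07 in WT and −1.21 in sig2-2. The plastid tRNA loci went the other way, TRNH with −9.70 in WT and 10.04 in sig2-2, TRNR.1 with −8.18 and 11.28, and TRNT.2 with −8.76 and 1.09.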

How the results depend on the processing

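Each condition is 1 combined value, so leaving out replicates was not possible. No paired analysis was possible because the columns carry no replicate numbers. The count of 3966 loci higher at 7 d became 2235 where 1 FPKM was required at both ages, since loci that appeared at 7 d leave the comparison, and the 2787 lower loci became 2276, so that falls then outnumbered rises. At a 4-fold threshold 1760 loci were higher and 605 lower. Under the other alternatives the counts stayed within 1.5 times, from 2919 (5 FPKM in either column) to 4577 (pseudocount 0.1) higher and from 2439 to 3402 lower, over the same settings. Keeping loci with 300 or more exonic bases, an alternative chosen after seeing the data, gave 3841 higher and 2640 lower. Of the list counts, 26 moved by over 1.5 times where 1 FPKM was required at both ages, 18 without a pseudocount, 14 at 5 FPKM, 9 at a pseudocount of 0.1 and none under both scalings. Of 362 named genes 17 crossed 2-fold under the pseudocount of 0.1 or 1 of the scalings. Depth is unknown, so values near 1 FPKM and listed zeros of short loci are the least certain.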

Other observations

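Genes outside the fixed lists were among the largest changes. AT1G23130, of a polyketide cyclase family, went from 0.0853 to 643.2 FPKM, AT3G16670, an extensin-like pollen allergen family gene, from a listed 0 to 425.6 FPKM, and AT1G64370, with no named function, from a listed 0 to 430.8 FPKM. At 1 d the most abundant coding loci after AT3G08520 and ICL included GRP7, an RNA-binding protein (3227 and 1391 FPKM), and PYK10, a β-glucosidase of root ER bodies (3222 and 1178 FPKM). At 7 d PSBR of photosystem II (5064 FPKM) and the plastocyanin DRT112 (4985 FPKM) stood among the 10 highest loci.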
